A study of Homo sapiens with 40 samples.

Results

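The genes described here are 5 members of the plasminogen activation system, PLAU, PLAUR, PLAT, SERPINB2 and SERPINE2, of 12655 genes counted in spheroids of 2 human squamous carcinoma lines. They were taken from the count table by symbol and not by a rule on their values, though the members were chosen with earlier results of these data known. All 5 passed the filter on low counts in both lines, in which 12131 (FaDu) and 11976 (Kyse30) genes were tested. SERPINB2 passed that filter only through the sorted EGF groups in which it was high, in both lines, so that it had to differ from the groups in which it was almost uncounted. Its p-values, and its part in counts and medians over the members, are given as a description and support nothing.

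Plasminogen is a zymogen that binds to cell surfaces and matrix and is cut to plasmin, a protease that degrades fibrin and several matrix proteins. PLAU encodes urokinase and PLAT encodes tissue-type plasminogen activator, the proteases that make this cut. PLAUR encodes the receptor that holds urokinase at the cell surface, SERPINB2 encodes plasminogen activator inhibitor type 2, and SERPINE2 encodes protease nexin-1, an inhibitor of thrombin, urokinase and plasmin. In squamous carcinomas the system is best known for urokinase and its receptor at the invading edge.

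The cells were the hypopharyngeal tumour line FaDu and the oesophageal squamous line Kyse30, both expressing Dendra2, a protein that light turns from green to red. Spheroids lay in type I collagen for 72 h in serum-free medium, in 9 nM epidermal growth factor (EGF), in 9 nM EGF with 10 µg/mL cetuximab, a receptor-blocking antibody, or in 9 nM EGF with 100 nM AZD6244, a MEK inhibitor. Cells of the EGF spheroids were sorted as invasive or non-invasive, which gave 5 groups of 4 samples in each line, and the label on genotype reads wildtype throughout. Per the labels' protocols, 40 spheroids were used per treatment. No label says whether replicates came from separate cultures, so the spread behind each p-value may be a technical one between these samples only. The label on cell selection gives the same photoconverted cells for invasive and non-invasive samples, so that this division rests on the titles. It reads unselected for the serum-free spheroids and for those given cetuximab or the MEK inhibitor. A comparison of any of these with non-invasive cells therefore changes the sort together with the treatment, and the parts of the 2 cannot be told apart.

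The FaDu libraries had totals of 2312126 to 5669262 counts. Those of Kyse30 had 2538447 to 4534339, except for invasive replicate 1, a shallow library of 463124. The nuclear transcript MALAT1 took 6.27% and 9.63% of counts in non-invasive Kyse30 replicates 1 and 3, against 1.68% and 1.91% in replicates 2 and 4. In FaDu, MEK inhibitor replicate 1, cetuximab replicate 2 and invasive replicate 2 correlated least with the other libraries of their groups (r = 0.936, 0.949 and 0.957). In Kyse30 the shallow library correlated least, at r = 0.648. Several other Kyse30 libraries were also below 0.957, such as serum-free replicate 2 (0.935) and cetuximab replicate 1 (0.943). All 7 squamous epithelial markers looked for were among the counted genes, although Kyse30 had only 21 counts of KRT5 and 11 of KRT14 over its 20 libraries. Of the other markers looked for, only COL1A1 (1 of 6 fibroblast genes), CDH5 (1 of 4 endothelial genes) and CD68 (1 of 5 leukocyte genes) were among them. In FaDu the summed squamous markers stood at 1043 to 1308 CPM (counts relative to library size) in serum-free and 381 to 447 CPM in non-invasive libraries, COL1A1 at 16.9 to 22.4 and 4.43 to 10.9 CPM, and CDH5 at 2.27 to 5.29 and 0 to 0.22 CPM. CD68 went the other way in FaDu, as PLAUR did, with 0 to 1.70 CPM in serum-free, 6.95 to 10.9 CPM in non-invasive and 0 to 2.54 CPM in MEK inhibitor libraries. In Kyse30 CD68 overlapped between serum-free and non-invasive libraries (0.32 to 6.23 and 4.06 to 8.81 CPM). CDH5 stood there at 16.4 to 34.6 CPM in serum-free and 3.77 to 6.93 CPM in non-invasive libraries. The Kyse30 squamous sum did not fall with EGF, at 430 to 526 CPM in serum-free and 507 to 767 CPM in non-invasive libraries. Invasive Kyse30 libraries stood at 852 to 1203 CPM. Of the squamous markers KRT5 had the most counts in FaDu, 37972 over its 20 libraries. As group means, mitochondrial transcripts took 15.3% of counts in serum-free FaDu and 21.96% in serum-free Kyse30. The means of the other groups were 8.38% to 11.4% and 11.5% to 15.8%, the last being that of the group with the shallow library. The part of these shares and markers in the values below was not tested.

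On GRCh38 with GENCODE v29 annotation, PLAU lies at chr10:73909177-73917497 on the plus strand and overlaps C10orf55 on the minus strand. The strand setting of the counting is not given in the sources used here, so how reads from the overlap of those 2 genes were assigned is not known. PLAUR lies at chr19:43646095-43670547 (minus), SERPINB2 at chr18:63871692-63903890 (plus) and SERPINE2 at chr2:223975112-224039319 (minus). The PLAUR locus holds the small pseudogene RN7SL368P, and SERPINB2 shares part of its span with SERPINB10 on the same strand.

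AP-1 and ETS factors are known targets of the EGF receptor and MEK pathway, and their motifs were searched for in the promoters. PLAUR, SERPINB2 and SERPINE2 were all higher with EGF and lower with the MEK inhibitor in FaDu. The windows of PLAUR and SERPINB2 are shown because they held an AP-1 and an ETS motif, and the windows of SERPINE2, which changed in the same directions, held none. Each run is the 250 bases before the RefSeq start (GRCh38.p14), 5′ to 3′ on the gene's strand, at chr19:43670170-43670419 (minus) and chr18:63887455-63887704 (plus). Capitals mark AP-1 motifs (TGANTCA), ETS motifs (AGGAAG, or CTTCCT for the opposite strand) and the TATA box (TATAAA), searched on both strands.
PLAUR: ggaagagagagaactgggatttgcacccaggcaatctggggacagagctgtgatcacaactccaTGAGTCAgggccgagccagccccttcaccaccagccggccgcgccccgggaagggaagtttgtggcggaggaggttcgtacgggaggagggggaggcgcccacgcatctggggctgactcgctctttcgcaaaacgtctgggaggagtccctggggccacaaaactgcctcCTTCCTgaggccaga
SERPINB2: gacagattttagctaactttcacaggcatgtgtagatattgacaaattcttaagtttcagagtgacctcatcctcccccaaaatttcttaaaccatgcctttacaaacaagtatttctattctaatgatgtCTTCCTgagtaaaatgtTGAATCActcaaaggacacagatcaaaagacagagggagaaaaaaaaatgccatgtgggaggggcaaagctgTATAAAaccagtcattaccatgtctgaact
The PLAUR window held TGAGTCA at 186 to 180 bases before the start and CTTCCT at 15 to 10. The SERPINB2 window held CTTCCT at 119 to 114, TGAATCA at 102 to 96 and TATAAA at 30 to 25 bases before the start. None of these matches overlapped another. Of 35116 windows of this length, 6.57% held the AP-1 motif, 28.7% the ETS motif and 10.7% the TATA box. In PLAU, 1 of 2 windows held AGGAAG at 221 to 216 bases before the start, and the 2 windows of SERPINE2 held none of the motifs. These matches describe the letters only, and no factor's binding was measured.

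Levels below are CPM scaled by TMM, a normalization of library sizes, and are listed by replicate 1 to 4. Changes are log2 differences ± SE from edgeR's quasi-likelihood test, and a gene is called higher or lower where the Benjamini-Hochberg adjusted p over all genes tested is under 0.05. Libraries were made with the QuantSeq 3′ kit, which counts transcript ends, and levels are compared only within a gene. In such bulk samples fewer expressing cells and less RNA per cell cannot be told apart.

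Between non-invasive EGF cells and serum-free spheroids, FaDu had 3 of the 5 members higher (PLAUR, SERPINB2 and SERPINE2) and PLAT lower, where 25.3% of all genes were called higher and 24.7% lower. Kyse30 had PLAU, PLAUR and PLAT higher and none lower, against 8.1% and 4.76% of all genes. The median change over the members, with SERPINB2 included and so a description only, was 3.33 in FaDu and 2.35 in Kyse30. Over all genes tested it was -0.02 and 0.03. PLAUR was the member called higher in both lines, and PLAT went in opposite directions in them.

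**Figure D1:**
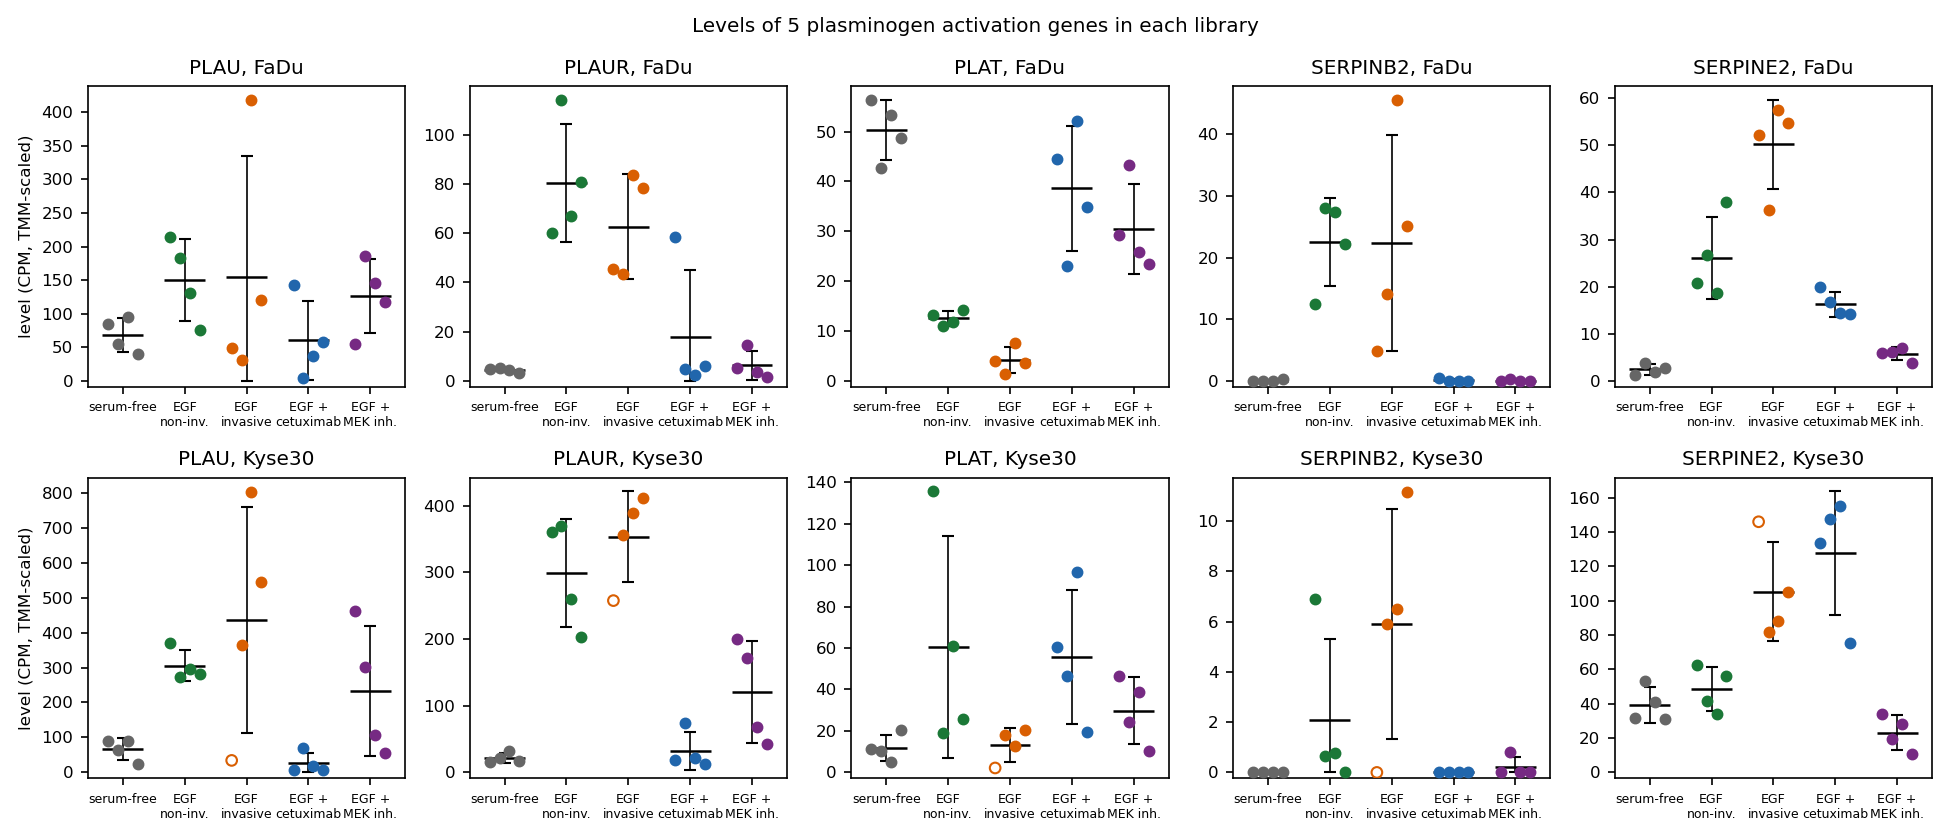
Level of each gene in every library (vertical axis, CPM scaled by TMM, with its own scale in each panel) by group, FaDu above and Kyse30 below. Points are libraries, horizontal lines are means and bars are 1 SD over 4 libraries, with the lower end limited to 0; the open circle is the Kyse30 invasive library with 463124 counts. PLAUR is low in serum-free libraries of both lines, and PLAT in FaDu falls from 42.7 to 56.4 CPM without EGF to 1.35 to 7.64 CPM in invasive cells.

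PLAU, the gene of urokinase, varied widely between replicates in FaDu. It stood at 84.6, 55.6, 94.8 and 40.1 CPM in serum-free libraries and at 214, 183, 131 and 75.5 CPM in non-invasive cells. The 2 groups overlapped, since the lowest non-invasive library lay below the highest serum-free libraries. The change of 1.14 ± 0.80 did not pass (edgeR adjusted p = 0.25), whereas a fit of these 2 groups alone gave 1.15 ± 0.42 and passed (adjusted p = 0.048).

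Invasive FaDu cells had PLAU at 49.6, 31.3, 418 and 121 CPM. Replicate 3 was far above the other libraries, and without it the change against non-invasive cells was -1.15 (edgeR adjusted p = 0.46) rather than 0.04 (adjusted p = 0.99). With cetuximab PLAU stood at 142, 5.04, 37.0 and 58.6 CPM and with the MEK inhibitor at 55.3, 186, 146 and 118 CPM. Both groups overlapped the non-invasive libraries, at -1.30 ± 0.80 and -0.25 on the log2 scale (edgeR adjusted p = 0.37 and 0.84). No neighbours in the order of FaDu levels, invasive, non-invasive, MEK inhibitor, serum-free and cetuximab, differed by the test.

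In Kyse30 PLAU was higher with EGF and low with cetuximab. It stood at 91.2, 63.9, 89.2 and 24.2 CPM in serum-free libraries and at 371, 272, 296 and 282 CPM in non-invasive cells. Every non-invasive library lay above every serum-free library, at 2.18 ± 0.71 (edgeR adjusted p = 0.045). That call stands at the threshold: it was lost when any 1 of the 8 libraries was left out, at changes of 1.90 to 2.36.

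With cetuximab PLAU fell to 7.52, 71.3, 19.2 and 7.01 CPM in Kyse30, below all non-invasive libraries, a change of -3.53 ± 0.76 (edgeR adjusted p = 0.0061). The MEK inhibitor libraries spread from 461 and 301 to 108 and 56.8 CPM and did not differ from non-invasive cells by the test. Between the 2 inhibitors, where 0.593% of all genes were called higher with the MEK inhibitor and 0.585% lower, PLAU was higher with the MEK inhibitor by 3.14 ± 0.74 (edgeR adjusted p = 0.034), a call lost in 6 of 8 fits with a library left out (adjusted p up to 0.16). Invasive Kyse30 cells had 34.4, 365, 803 and 544 CPM, the lowest in the shallow library, and a mean of 571 ± 220 CPM (SD, n = 3) without it. Their change against non-invasive cells did not pass with or without that library.

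PLAT, the gene of tissue-type activator, had its highest mean level without EGF in FaDu. The gene lies at chr8:42175233-42207724 on the minus strand. It stood at 56.4, 42.7, 53.3 and 48.7 CPM in serum-free libraries, at 13.2, 10.95, 11.8 and 14.3 CPM in non-invasive cells and at 4.07, 1.35, 7.64 and 3.59 CPM in invasive cells. The 3 groups did not overlap. The fall with EGF was -1.99 ± 0.27 (edgeR adjusted p = 1.0e-06), and invasive against non-invasive cells stood at -1.58 ± 0.33 (adjusted p = 0.0051). The second change missed the threshold only under limma-voom (adjusted p = 0.055) among the alternatives run.

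Invasive against non-invasive FaDu cells had 2 of 5 members called, SERPINE2 higher and PLAT lower, where 0.659% of all genes were called higher and 2.34% lower. The members' median change there was -0.01, as it was over all genes tested.

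With cetuximab and with the MEK inhibitor PLAT had mean levels between those of serum-free and non-invasive FaDu cells. Cetuximab libraries held 44.5, 23.0, 52.0 and 34.9 CPM and MEK inhibitor libraries 29.3, 43.4, 25.8 and 23.4 CPM. All 8 were above every non-invasive library, by 1.62 ± 0.27 and 1.28 ± 0.27 on the log2 scale (edgeR adjusted p = 1.9e-04 and 8.2e-04). Against serum-free libraries, whose range the cetuximab libraries overlapped, the cetuximab group was at -0.37 ± 0.25 and did not pass (edgeR adjusted p = 0.25). The MEK inhibitor group was at -0.72 ± 0.26, just outside the threshold (edgeR adjusted p = 0.050), and it passed in 7 of the alternatives run, such as without MEK inhibitor replicate 2 (-0.94, adjusted p = 0.020).

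**Figure D2:**
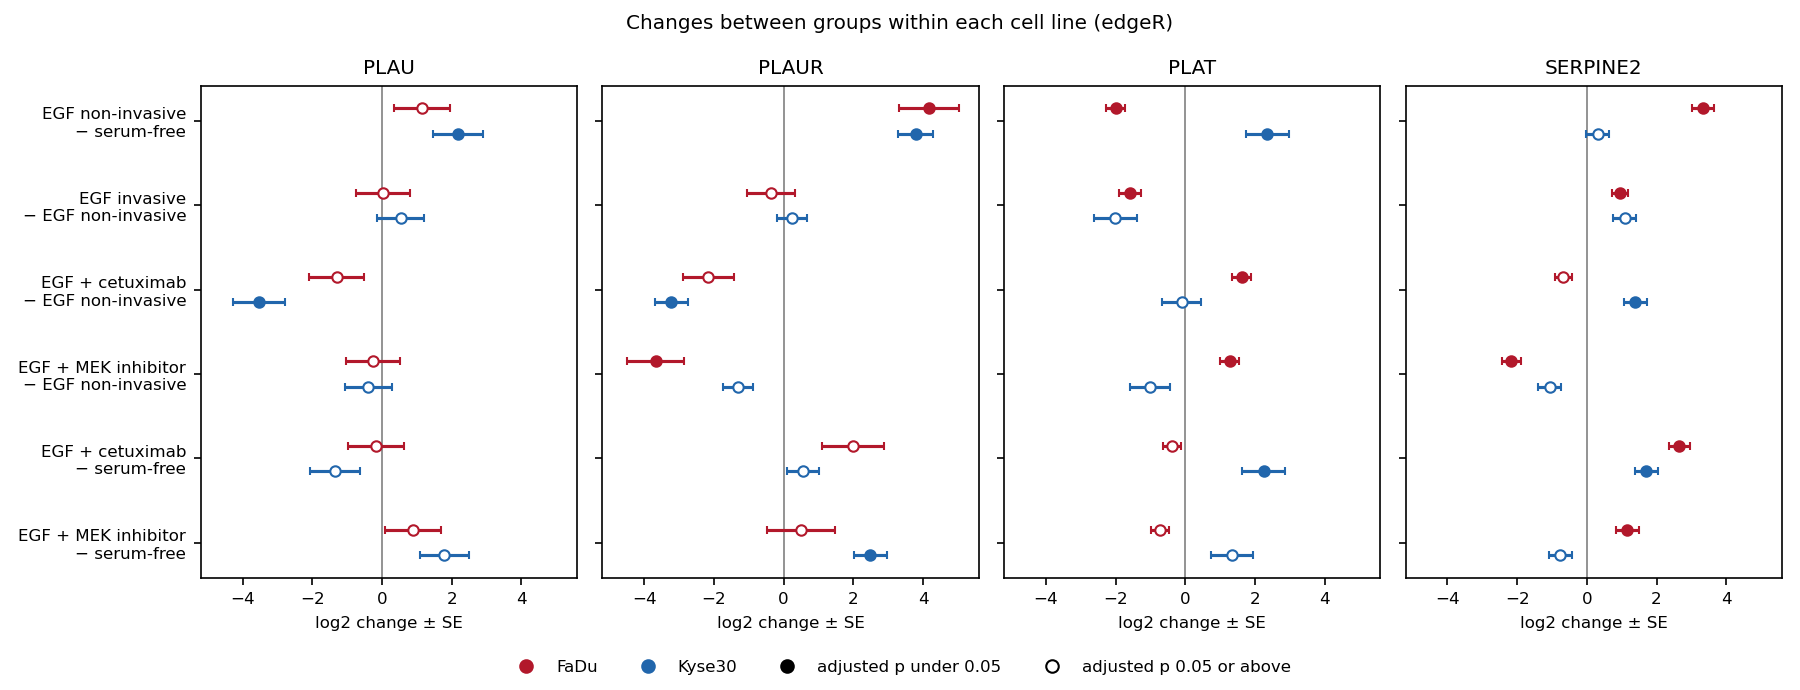
Log2 change with its SE (horizontal axis) of 4 genes in 6 comparisons, FaDu in red and Kyse30 in blue, filled where the adjusted p is under 0.05. SERPINB2 is left out because most of its groups hold no or few counts. PLAT in non-invasive against serum-free samples lies at -1.99 in FaDu and at 2.35 in Kyse30.

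In Kyse30 PLAT was low without EGF and uneven with it. Serum-free libraries held 11.4, 10.3, 5.11 and 20.3 CPM and non-invasive libraries 136, 18.8, 61.2 and 25.7 CPM. The high values of non-invasive cells were those of replicates 1 and 3, the libraries with the high MALAT1 share, whose mitochondrial shares were also high (17.4% and 19.3%, against 8.22% and 8.95%). The change of 2.35 ± 0.61 passed (edgeR adjusted p = 0.011), but it was 1.57 without non-invasive replicate 1 (adjusted p = 0.087) and 0.94 without replicates 1 and 3 and the shallow library (adjusted p = 0.29).

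Invasive Kyse30 cells had PLAT at 2.15, 18.0, 12.6 and 20.7 CPM, of which the highest lay above the lowest non-invasive library. The change of -2.004 did not pass (edgeR adjusted p = 0.15) and was -0.38 without those 3 libraries. Cetuximab libraries held 60.6, 46.4, 96.8 and 19.3 CPM and MEK inhibitor libraries 46.4, 24.1, 38.7 and 10.2 CPM. Against serum-free spheroids cetuximab was higher by 2.25 ± 0.61 (edgeR adjusted p = 0.041), a call lost in 6 of 8 fits with 1 library left out, at 1.84 to 2.33. Against non-invasive cells neither treatment differed by the test (-0.10 and -1.01), and both values turned positive, to 1.32 and 0.43, without the 3 libraries above.

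PLAUR, the gene of the urokinase receptor, rose with EGF in both lines. In FaDu it stood at 4.90, 5.40, 4.26 and 3.28 CPM in serum-free libraries and at 60.1, 114, 67.1 and 80.8 CPM in non-invasive cells. Every non-invasive library lay far above every serum-free library, and the change was 4.17 ± 0.87 (edgeR adjusted p = 8.4e-04). Kyse30 libraries held 15.4, 21.8, 32.2 and 16.9 CPM without EGF and 361, 370, 260 and 203 CPM in non-invasive cells. These groups did not overlap either, at 3.79 ± 0.50 (edgeR adjusted p = 9.3e-06).

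Invasive cells kept PLAUR at levels that overlapped those of non-invasive cells, with 45.5, 43.4, 83.7 and 78.2 CPM in FaDu and 258, 356, 389 and 412 CPM in Kyse30. The changes were -0.36 and 0.25, and neither passed. In Kyse30 none of the 5 members was called between invasive and non-invasive cells, with 0.0668% of all genes called higher and 0.342% lower. At an unadjusted p under 0.05, PLAT and SERPINE2 passed, and DESeq2 called the same 2 genes. The median change over all genes in that comparison was -0.15, or -0.04 without the shallow library.

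With the MEK inhibitor PLAUR in FaDu stood at 5.29, 14.8, 3.72 and 1.49 CPM, below all non-invasive libraries, at -3.67 ± 0.82 (edgeR adjusted p = 0.0030). That comparison had PLAT higher and 3 members lower (PLAUR, SERPINB2 and SERPINE2), against 14.8% of all genes called higher and 14.9% lower. The median change over the members, with SERPINB2 included and so a description only, was -2.17, and 0.03 over all genes tested. In Kyse30 the inhibitor libraries held 199, 172, 68.5 and 43.1 CPM of PLAUR. All 4 lay below the non-invasive range, but the change of -1.31 ± 0.44 did not pass (edgeR adjusted p = 0.097). With 1.65% of all genes called higher and 2.91% lower, none of the 5 members was called in Kyse30; at an unadjusted p under 0.05, PLAUR, SERPINB2 and SERPINE2 passed, DESeq2 called SERPINE2 and limma-voom called PLAUR. Against serum-free Kyse30 spheroids PLAUR remained higher, by 2.48 ± 0.47 (edgeR adjusted p = 0.0036), the only member called there, where 2.29% of all genes were called higher and 1.61% lower.

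Cetuximab libraries were uneven in PLAUR. In FaDu they held 58.3, 4.73, 2.41 and 6.02 CPM, so that replicate 1 stood near the non-invasive libraries and the others near the serum-free ones. The change against non-invasive cells was -2.17 ± 0.73 and did not pass (edgeR adjusted p = 0.082), whereas it was -4.21 without replicate 1 (adjusted p = 3.3e-05). In Kyse30 they held 18.1, 74.5, 21.4 and 13.02 CPM, below all non-invasive libraries, at -3.23 ± 0.48 (edgeR adjusted p = 1.4e-04). The MEK inhibitor group of Kyse30 was higher than the cetuximab group by 1.92 ± 0.46 (edgeR adjusted p = 0.033), a call lost in 6 of 8 fits with a library left out (adjusted p up to 0.20).

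Between cetuximab and non-invasive samples FaDu had PLAT higher and SERPINB2 lower, against 3.64% of all genes called higher and 4.93% lower. Kyse30 had SERPINE2 higher and PLAU and PLAUR lower, against 1.85% and 3.08%. The members' medians, with SERPINB2 included and so a description only, were -1.30 and -3.23, and those of all genes 0.05 and -0.03.

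SERPINE2, the gene of protease nexin-1, differed between the lines before any EGF. Serum-free FaDu libraries held 1.23, 3.75, 1.99 and 2.77 CPM and serum-free Kyse30 libraries 31.5, 53.3, 40.9 and 31.4 CPM. Non-invasive FaDu cells held 20.8, 26.8, 18.7 and 38.0 CPM, with no overlap with serum-free libraries, at 3.33 ± 0.31 (edgeR adjusted p = 1.1e-09). In Kyse30 non-invasive cells held 62.6, 41.6, 34.3 and 55.9 CPM, which overlapped the serum-free range (0.31, edgeR adjusted p = 0.61).

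Invasive cells had more SERPINE2 than non-invasive cells in FaDu, at 52.2, 36.4, 57.4 and 54.8 CPM. The lowest invasive library lay just below the highest non-invasive library. The change of 0.95 ± 0.24 passed (edgeR adjusted p = 0.025), but not when non-invasive replicate 1, 2 or 3 or invasive replicate 1, 3 or 4 was left out (changes of 0.83 to 0.96, adjusted p of 0.056 to 0.092). Kyse30 invasive cells held 146, 81.7, 88.3 and 105 CPM, all above the non-invasive libraries, and 91.7 ± 12.0 CPM (SD, n = 3) without the shallow library. That change of 1.09 did not pass (edgeR adjusted p = 0.14), nor did the value of 0.91 without the shallow library (adjusted p = 0.094).

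With the inhibitors SERPINE2 moved apart. Cetuximab libraries of FaDu held 19.9, 16.7, 14.5 and 14.1 CPM and MEK inhibitor libraries 5.99, 6.23, 7.03 and 3.83 CPM. Against non-invasive cells the first group was at -0.68 ± 0.24, which did not pass (edgeR adjusted p = 0.084), and the second was lower, at -2.17 ± 0.27 (adjusted p = 5.7e-07). Both remained above serum-free spheroids, by 2.65 ± 0.31 (edgeR adjusted p = 1.0e-07) and 1.16 ± 0.34 (adjusted p = 0.015); the second call was lost without serum-free replicate 1 or 3 (changes of 1.00 and 1.06). SERPINE2 was the only member called in either of these comparisons, where 22.7% of all genes were called higher and 21.1% lower with cetuximab, and 10.8% and 8.63% with the MEK inhibitor. PLAUR in cetuximab against serum-free FaDu stood at 2.00 ± 0.89 (edgeR adjusted p = 0.080), at -0.015 without cetuximab replicate 1 and at 2.39 without replicate 3 (adjusted p = 0.030).

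In Kyse30 cetuximab libraries held 133, 148, 155 and 75.4 CPM of SERPINE2, all above the non-invasive libraries, at 1.40 ± 0.32 (edgeR adjusted p = 0.011). Against serum-free spheroids they were higher by 1.70 ± 0.33 (edgeR adjusted p = 0.0055); with PLAT, that made 2 of the 4 members with a value higher, against 1.88% of all genes higher and 1.25% lower. MEK inhibitor libraries held 34.2, 19.6, 28.0 and 10.95 CPM, a value of -1.07 against non-invasive cells that did not pass (edgeR adjusted p = 0.065). It passed without MEK inhibitor replicate 1 (-1.31, edgeR adjusted p = 0.042) and without the shallow library (adjusted p = 0.011). The fit without the shallow library called 14.4% of all genes in either direction, against 1.65% higher and 2.91% lower in the fit reported. The MEK inhibitor group lay below the cetuximab group, at -2.46 ± 0.34 (edgeR adjusted p = 2.5e-04), and this call stood in each of the 8 fits with 1 library left out.

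SERPINB2, the gene of plasminogen activator inhibitor type 2, was counted almost only in sorted EGF cells. In FaDu it stood at 12.5, 28.0, 27.4 and 22.3 CPM in non-invasive cells and at 4.79, 14.1, 45.5 and 25.1 CPM in invasive cells. Serum-free libraries held 1 count in all (0.25 CPM in replicate 4), cetuximab libraries 2 (0.45 CPM in replicate 1) and MEK inhibitor libraries 1 (0.23 CPM in replicate 2), against 391 in non-invasive cells. The ratio to serum-free libraries was 320 (95% interval 57.0 to 12655), that to cetuximab 208 (57.1 to 1720) and that to the MEK inhibitor 376 (67.1 to 14893), intervals that cover counting error only. The fit called all 3 differences (edgeR adjusted p = 5.9e-08, 7.2e-07 and 9.0e-08), for a gene that entered it only through the sorted EGF cells, and invasive and non-invasive cells did not differ by the test.

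In Kyse30 SERPINB2 was near the limit of detection. Non-invasive cells held 6.92, 0.65, 0.77 and 0 CPM and invasive cells 0, 5.90, 6.51 and 11.2 CPM, where the 0 is that of the shallow library. Serum-free and cetuximab libraries held 0 counts and MEK inhibitor libraries 3, all in replicate 2 (0.80 CPM). With each group at 0 set to a floor of 3 counts in all, the 27 counts of non-invasive cells stood at 6.52-fold serum-free libraries and 10.4-fold cetuximab libraries. Such folds leave out the counting error of the higher group, so they are not lower limits. Of the 27 counts 22 were in replicate 1, and the 5 of the other 3 libraries gave 1.54-fold and 2.44-fold. Neither difference passed (edgeR adjusted p = 0.059 and 0.058), while both did without the shallow library (adjusted p = 0.026 and 0.019) and without non-invasive replicate 4 (adjusted p = 0.041 in each). The fit without the shallow library called 27.8% and 17.1% of all genes in either direction in these comparisons. The fit reported called 8.1% higher and 4.76% lower in the first, and 1.85% and 3.08% in the second. Without non-invasive replicate 1 the adjusted p was 0.27 and 0.32. At the same floor the 68 counts of invasive cells stood at 26.8-fold serum-free and 42.5-fold cetuximab libraries. The fit called both differences (edgeR adjusted p = 0.0048 and 0.0038), where 12% and 7.62% of all genes were called higher. Here too the gene entered the test only through the groups that held it.

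The difference between the lines was tested itself, as the Kyse30 change minus the FaDu change. Of the 5 members, PLAT (4.34 ± 0.70, edgeR adjusted p = 2.3e-05) and SERPINE2 (-3.02 ± 0.46, adjusted p = 7.8e-06) differed in the change from serum-free to non-invasive samples, against 15.7% of all genes. Without the shallow and the MALAT1-high Kyse30 libraries the PLAT difference was 2.92 ± 0.64 (edgeR adjusted p = 0.0012). PLAUR did not differ by this test (-0.38 ± 0.96, edgeR adjusted p = 0.86). For cetuximab against non-invasive cells only SERPINE2 differed (2.12 ± 0.41, edgeR adjusted p = 0.0020), against 1.31% of all genes, and the call was lost without replicate 2 (1.93) or 3 (1.96) of every group. For the MEK inhibitor only PLAT differed (-2.25 ± 0.67, edgeR adjusted p = 0.041), against 5.1% of all genes. That call was lost with any replicate number left out (-1.78 to -2.44), and without the 3 Kyse30 libraries above the difference was -0.83 ± 0.62 (adjusted p = 0.52). For invasive against non-invasive cells none of the 5 was called, against 0.182% of all genes; no member's unadjusted p was under 0.05.

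**Figure D3:**
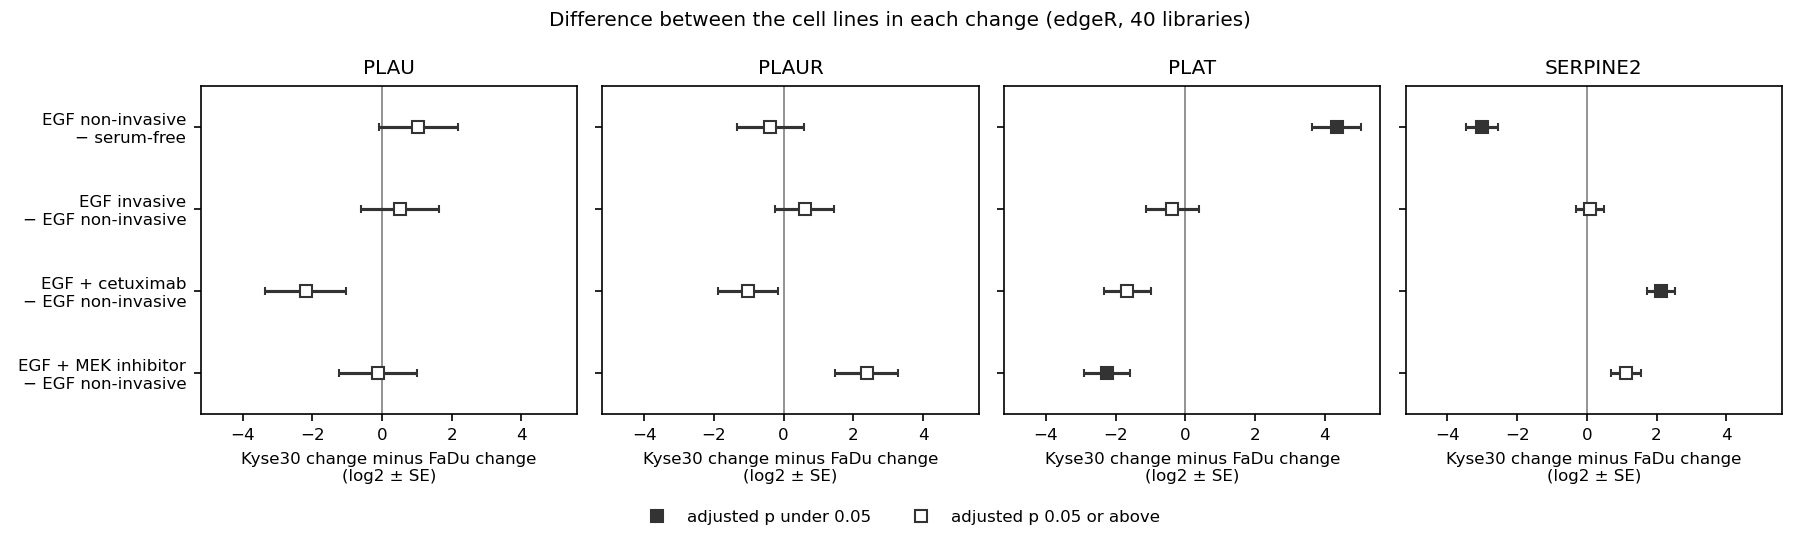
Kyse30 change minus FaDu change (horizontal axis, log2 with SE) of 4 genes in 4 comparisons, filled where the adjusted p is under 0.05. PLAT and SERPINE2 differ between the lines in non-invasive against serum-free samples, at 4.34 and -3.02.

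Without EGF the lines differed in 3 of the 5 members, against 43.5% of all genes. SERPINE2 was higher in Kyse30 by 3.92 ± 0.36 (edgeR adjusted p = 8.0e-12) and PLAUR by 2.26 ± 0.77 (adjusted p = 0.017), and PLAT was at -2.11 ± 0.51 (adjusted p = 7.2e-04). The PLAUR call was lost without replicate 3 of every group (1.99, edgeR adjusted p = 0.075). PLAU stood at 68.8 ± 25.3 CPM (SD, n = 4) in FaDu and 67.1 ± 31.2 CPM in Kyse30.

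The other genes of the system were counted by list, to be read against the 25.3% of all genes called higher and 24.7% called lower with EGF in FaDu, and the 8.1% and 4.76% in Kyse30. Genes called in only 1 of the lines, and ENO1 and KRT8 in this comparison, were named after their values were seen. Of 7 genes for plasminogen and its binding to cells, 6 were tested in each line. Against serum-free spheroids 4 were higher in non-invasive FaDu cells (ANXA2, ENO1, KRT8 and PLGRKT) and 5 in Kyse30 (those and S100A10), with none lower, and list medians of 1.17 and 1.78. ANXA2, an annexin that binds plasminogen and its activators, rose by 1.59 ± 0.10 in FaDu and 2.91 ± 0.22 in Kyse30. PLGRKT, a transmembrane plasminogen receptor, rose by 1.90 ± 0.41 and 3.56 ± 1.07. ANXA2 was lower than in non-invasive cells with cetuximab (-0.83 and -2.08) and with the MEK inhibitor (-1.12 and -1.67). It remained higher than in serum-free spheroids, with cetuximab by 0.76 and 0.83 and with the MEK inhibitor by 0.47 and 1.24. PLGRKT was not called between either inhibitor and non-invasive cells in either line.

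Of 7 proteases that act on the system's zymogens, 5 were tested. With EGF, TMPRSS4, a membrane serine protease (-2.55 in FaDu and -1.34 in Kyse30), and CTSB, the lysosomal protease cathepsin B (-1.23 and -0.91), were lower in both lines, and no other gene of the list was called in Kyse30. In FaDu PRSS8 was also lower and F12, coagulation factor XII, higher, at 3.08 ± 0.41. The list medians were -1.23 and -0.81.

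The list for the clearance of activator and inhibitor complexes held 6 genes, not all of them receptors that take up such complexes. Of these, 5 were tested in FaDu and 3 in Kyse30. SORL1 fell with EGF in both lines (-1.85 ± 0.28 and -3.61 ± 0.42) and was higher with the MEK inhibitor than in non-invasive cells (0.88 and 2.63). LRP1 and MRC2 fell with EGF in FaDu, at -1.38 and -1.75. Of 11 partners of the urokinase receptor, 7 were tested, of which 5 were higher (CAV1, ITGA3, ITGA5, ITGB1 and ITGB5) and 2 lower (IGF2R and ITGAV) with EGF in FaDu, where 25.3% and 24.7% of all genes were, and ITGA3 and ITGA5 higher in Kyse30 (8.1% of all genes). ITGA5, a fibronectin receptor subunit, rose by 2.78 ± 0.31 and 1.94 ± 0.42, and ITGA3, a laminin receptor subunit, by 1.79 and 1.60. ITGA5 was lower than in non-invasive cells with cetuximab (-2.20 and -1.54) and with the MEK inhibitor (-2.02 and -1.34).

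All 13 AP-1 and ETS factors were tested. With EGF 5 were higher and 6 lower in FaDu, and 2 higher and 4 lower in Kyse30, against 25.3% and 24.7% of all genes in FaDu and 8.1% and 4.76% in Kyse30, with list medians of -0.03 and -0.33. ETV4, an ETS factor named here after its values were seen, was among those higher in FaDu and those lower in Kyse30. Lower in both lines were ELF3 (-2.93 and -1.46), FOS (-2.75 and -2.30) and FOSB (-1.65 and -1.28), also named after their values were seen. The factors higher in both lines were FOSL1, an AP-1 subunit (3.96 ± 0.51 and 2.43 ± 0.44), and ETS1 (4.08 ± 0.30 and 2.35 ± 0.63). FOSL1 and ETS1 were lower with the MEK inhibitor than in non-invasive cells, FOSL1 at -3.26 and -2.16 and ETS1 at -3.45 and -2.21. With cetuximab ETS1 was lower in both lines (-2.37 and -2.25) and FOSL1 in Kyse30 (-2.17), while FOSL1 stood at -0.83 ± 0.42 in FaDu and did not pass (edgeR adjusted p = 0.27).

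**Figure D4:**
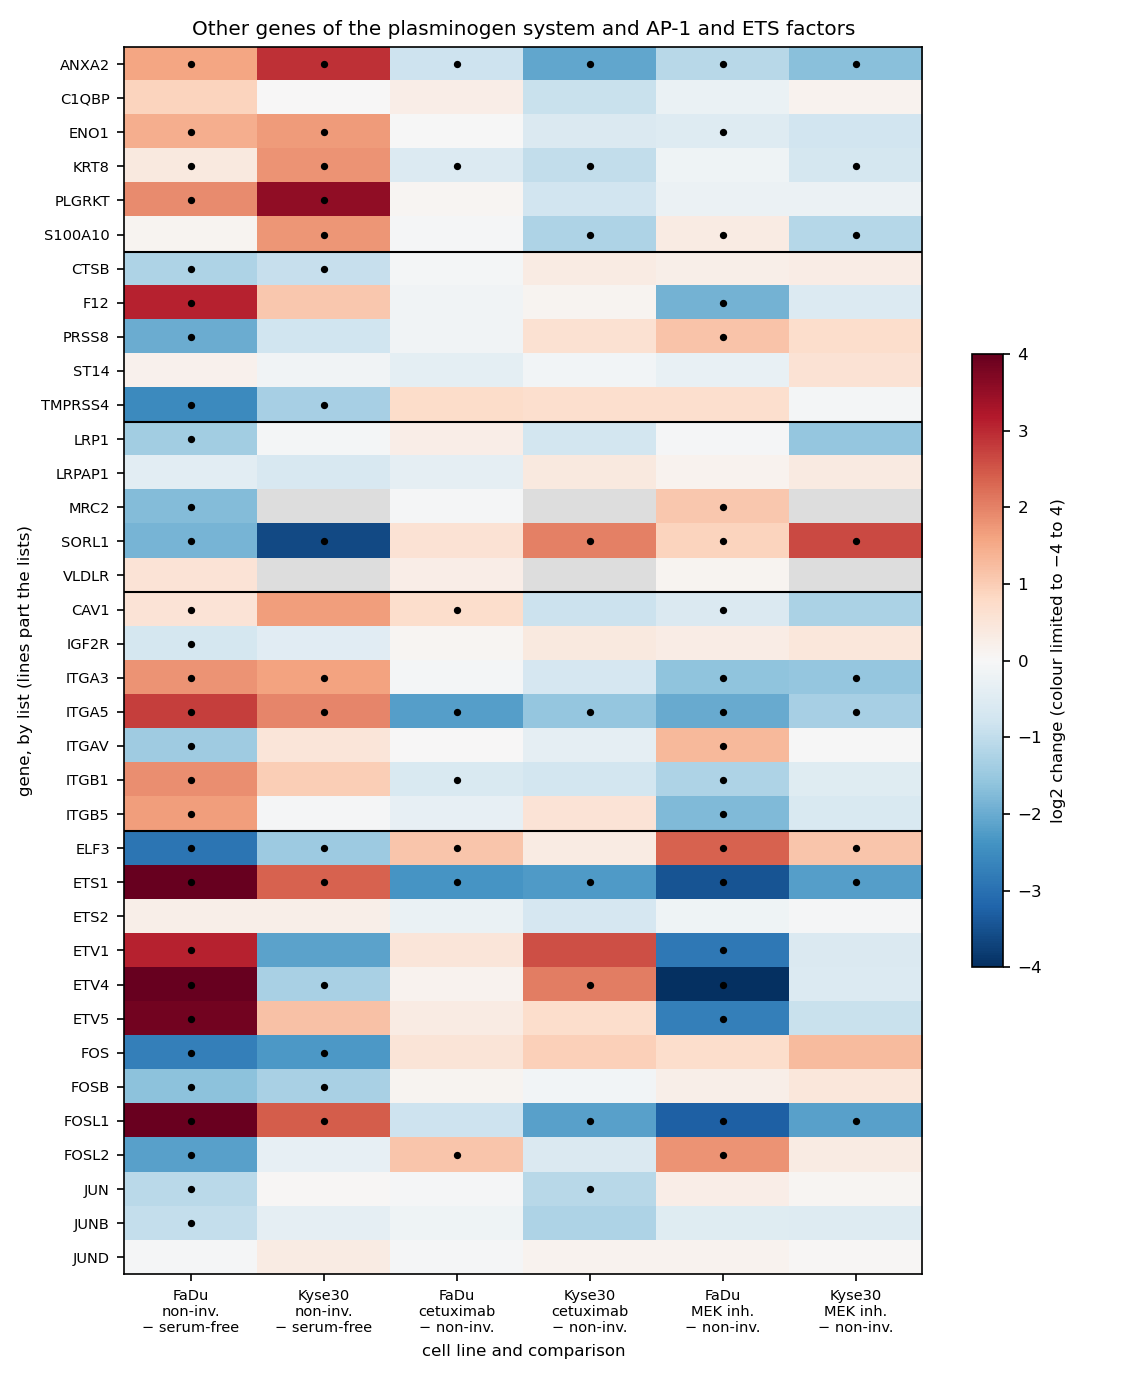
Log2 change (colour, limited to -4 to 4) of the tested genes of 5 lists (rows) in 3 comparisons in each line (columns), with a dot where the adjusted p is under 0.05 and grey where the gene was not tested. ETS1, FOSL1 and ITGA5 are red in non-invasive against serum-free columns and blue in the MEK inhibitor columns of both lines.

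Over the 20 libraries of each line, the genes most like each member were sought among 11459 by the smaller of 2 Pearson correlations of log2 CPM, a description in which libraries share group, depth and treatment. PLAUR was most like CDKN1A (r = 0.93 in FaDu and 0.90 in Kyse30), followed by PNP and AREG, an EGF receptor ligand; without the shallow library MXD1 stood in the place of AREG. SERPINB2 was most like IGFN1 (0.97 and 0.92) and MMP1 (0.94 and 0.88), the gene of interstitial collagenase, followed by NPC1. Outside the sorted EGF cells SERPINB2 had few or no counts, so its correlations rest largely on that split between groups. For PLAU the first was PSMA5 (0.95 and 0.87), then ZNF706 and PNMA1, of which only PSMA5 stayed among the first 3 without the shallow library. PLAT had weaker likenesses, of which SLCO3A1 (0.76 and 0.77) was first, then KCNMB3 and ABCA12; without the shallow library KCNMB3 came first and SYBU replaced ABCA12. For SERPINE2 they were CCND1 (0.90 and 0.75), EEF1B2 and ETV5, and without the shallow library all 3 were replaced, by AKAP12, ITPRID2 and ITGB5.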

How the data were processed

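RNA from spheroids, with cells sorted only in the EGF groups, was counted per gene in 40 samples. The authors deposited raw read counts per gene, with no normalization. STAR, HTSeq and GRCh38 (hg38) are named in the submitters' processing notes; their versions, the annotation and the strand are not given in the sources used. The labels name no molecular identifiers, so intervals cover counting error only. How the listed genes were preselected is not stated.

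Each column was matched to 1 sample description. The 20 libraries of a line entered 1 fit of the quasi-likelihood test of edgeR 4.0.16 (R 4.3.3, TMM, default expression filter by group, robust dispersions), with Benjamini-Hochberg adjustment over all genes tested and a threshold of 0.05. Differences between the lines came from 1 fit over 40 libraries. CPM are counts over TMM-scaled library sizes, with a pseudocount of 1 CPM for correlations. Ratios with few counts have exact 95% intervals, and a group at 0 has a floor of 3 counts. The method was run on simulated counts for invasive against non-invasive cells, where the direction of the set changes was checked. In those counts no library stood apart from its group beyond its depth, so they do not test the calls reported. DESeq2 1.42.0 and limma-voom (limma 3.58.1), RLE scaling, no filter, a filter of 10 CPM in 4 libraries, fits of 2 groups, replicate blocks and fits without libraries were alternatives.

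The members, lists and motifs were chosen with earlier results of these data known. Named were the members, and at most 2 genes per list and comparison that passed in both lines in the same direction, by the largest smaller absolute change; others, named after their values were seen, are marked. The list of other inhibitors is not reported here. Promoter windows are from RefSeq for 4 of the 5 members.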

Additional observations from a re-analysis of the deposited data

Results flagged for a closer look

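In a group of 4 libraries, 3 values stood far from the other libraries by Dixon's test, of 44 groups tested; chance alone gives about 1 in 20. PLAUR, the gene of the urokinase receptor, was at 58.3 CPM in cetuximab replicate 1 of FaDu, where the other libraries held 2.41 to 6.02 CPM. PLAUR was also at 74.5 CPM in cetuximab replicate 2 of Kyse30, against 13.02 to 21.4 CPM in the others. In both lines the same library was also the highest of its group in PLAU, with 142 CPM and 71.3 CPM. SERPINB2 was at 6.92 CPM in non-invasive replicate 1 of Kyse30, against 0 to 0.77 CPM in the others.

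For 4 changes of a member the 2 lines differed by the test of the difference itself (Kyse30 change minus FaDu change). From serum-free to non-invasive samples PLAT differed by 4.34 and SERPINE2 by -3.02 on the log2 scale, where 15.7% of all genes were called. SERPINE2 differed by 2.12 in cetuximab against non-invasive samples, and PLAT by -2.25 in MEK inhibitor against non-invasive samples, where 1.31% and 5.1% of all genes were called. The SERPINE2 call was lost without replicate 2 or 3 of every group, and the PLAT call with any replicate number left out. Without the shallow and the MALAT1-high Kyse30 libraries the PLAT values were 2.92 and -0.83, and the second was no longer called (edgeR adjusted p = 0.52).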

How the results depend on the processing

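Values below are the number of the 5 members called unless stated. The number of calls in Kyse30 between MEK inhibitor and non-invasive samples, 0 in the fit reported, was 1 with DESeq2, 1 with limma-voom, 1 with only the 2 groups in the fit, 1 without the shallow library and 1 without it and the 2 non-invasive libraries high in MALAT1. The last 2 fits called 14.4% and 9.78% of all genes in either direction, against 1.65% higher and 2.91% lower in the fit reported. Between MEK inhibitor and serum-free FaDu the number was 1, and 2 with DESeq2, with RLE scaling, with the stricter filter and without the 3 FaDu libraries that stood apart. The fit without those 3 libraries called 27.9% of all genes in either direction, against 10.8% higher and 8.63% lower in the fit reported. DESeq2 also gave 2 for cetuximab against serum-free FaDu (1 reported) and 2 for invasive against non-invasive Kyse30 (0). Limma-voom gave 1 for invasive against non-invasive FaDu (2), 1 for cetuximab against serum-free Kyse30 (2), 1 for non-invasive against serum-free Kyse30 (3) and 2 for the line difference in the MEK inhibitor change (1). Fits of 2 groups gave 2 for MEK inhibitor against serum-free Kyse30 (1). Without the shallow library and the 2 MALAT1-high libraries, non-invasive against serum-free Kyse30 gave 1, and PLAT turned to 0.43 (MEK inhibitor) and 1.32 (cetuximab) against non-invasive cells, and its line difference in invasive cells to 1.19 (chosen after seeing the data).

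Pooled over all pairs of groups, replicate numbers showed no general pairing of the samples. Of 40 same-number pairs, 8 in FaDu and 6 in Kyse30 correlated over 0.1, with medians of -0.02 and -0.00054 and highest values of 0.33 and 0.37. Invasive and non-invasive samples were not looked at on their own, so whether those 2 groups were paired was not tested. With the replicate block the line difference in the MEK inhibitor change had 0 calls and cetuximab against serum-free Kyse30 had 1.

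With 1 library left out in turn, calls ran in FaDu at 4 to 4 (non-invasive against serum-free), 1 to 2 (invasive against non-invasive), 2 to 3 (cetuximab) and 4 to 4 (MEK inhibitor, each against non-invasive), and against serum-free at 1 to 2 (cetuximab) and 0 to 2 (MEK inhibitor). In Kyse30 they ran, in that order, at 1 to 3, 0 to 0, 3 to 4, 0 to 1, 1 to 2 and 1 to 1, and for the 4 line differences at 2 to 2, 0 to 0, 0 to 1 and 0 to 1. Directions that turned by more than 1 SE were not called in the fit reported, and their ranges follow; a further 38 values of uncalled differences changed sign within 1 SE. PLAU in invasive FaDu ran from -1.15 to 0.37 against non-invasive, from -0.011 to 1.52 against serum-free and from -0.90 to 0.62 against MEK inhibitor samples, lowest without invasive replicate 3. PLAUR ran from -0.015 (without cetuximab replicate 1) to 2.39 and SERPINB2 from -1.70 to 2.19 in cetuximab against serum-free FaDu. MEK inhibitor minus cetuximab ran from -2.42 to 0.54 for PLAUR and from -2.18 to 1.56 for SERPINB2, highest without cetuximab replicate 1. In Kyse30 PLAT ran from -0.51 to 0.68 (cetuximab against non-invasive, highest without non-invasive replicate 1) and PLAUR from -0.30 to 0.82 (cetuximab against serum-free, lowest without cetuximab replicate 2). The line difference of PLAT in invasive cells ran from -1.004 to 0.55 and that of PLAUR with cetuximab from -2.30 to 1.42, highest without replicate 1 of every group. Apart from what is named here or beside the results, the cause of these changes was not tested. In Kyse30 no group held more than 68 counts of SERPINB2, so its values there rest on few counts.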
